A study of Mus musculus with 4 samples.

Results

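The genes described here encode the 9 neuronal subunits of the nicotinic acetylcholine receptor measured in mouse ventral midbrain, which holds the dopamine neurons of substantia nigra and ventral tegmental area. They were chosen by name: Chrna2, Chrna3, Chrna4, Chrna5, Chrna6, Chrna7, Chrnb2, Chrnb3 and Chrnb4. Each had 1 probe set annotated to it alone, so all 9 were found among the 19938 genes with such a probe set. RNA came from 2 RKO samples, labelled as Rev-erba knock-out, and 2 wild-type (WT) samples, 1 array each. Rev-erba is the gene Nr1d1, which encodes the clock repressor REV-ERBα. All animals were male, 10 to 15 weeks old and of C57BL/6J background. They had been entrained to 12 h of light per day for over 10 days and then kept 2 days in darkness before tissue was taken on the next day. The deleted part of Nr1d1, the hour of collection and the number of mice behind each array are unknown here. The labels call the replicates biological, and p-values measure only the spread between these samples.

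Nicotinic receptors are cation channels built from several subunits around a central pore, and they open when acetylcholine or nicotine binds between an α subunit and its neighbour. The subunit mix sets where a receptor is found and how it responds. In the rodent midbrain, dopamine neurons carry receptors with Chrna4 and Chrnb2, many of which also hold Chrna6 and Chrnb3, and cholinergic input through these receptors excites the cells and promotes dopamine release at their terminals. Chrna3 and Chrnb4 form the main receptor of autonomic ganglia and of the medial habenula, and Chrna7 forms receptors largely by itself.

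The arrays held normalized intensities on a linear scale, with medians of 240.1 and 236 in RKO and 237 and 236 in WT over 35556 probe sets. Values were put on the log2 scale, and a difference is the mean of the RKO arrays minus the mean of the WT arrays. Genes whose mean fell short of an intensity of 167, the 40th percentile over the probe sets, were left out of the test, which kept 13587 genes. A gene was called changed when its adjusted p (limma, Benjamini-Hochberg over all tested genes, two-sided) was under 0.05. Nr1d1, the gene knocked out, was at 1259 and 1229.7 in RKO and at 2897 and 3099 in WT, a log2 difference of -1.27 (SE 0.0589, adjusted p = 2.44e-06). Markers of dopamine neurons were present, with 8 of 8 above the filter. Of medial habenula markers 5 of 7 lay above it (Pou4f1 and Gpr151 below), of cholinergic motor nucleus markers 3 of 6 (Chat, Slc5a7 and Phox2a below) and of serotonin neuron markers 0 of 2 (Tph2 and Slc6a4).

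Of the 9 subunits, 8 lay above the filter and 1, Chrna2, below it. The WT mean of each of these 8 was itself above the filter. Chrna6 and Chrnb3 rose in RKO, 0 subunits fell and 6 did not pass in limma. Over all tested genes 1.60% were called, 0.640% of them higher and 0.964% lower in RKO as shares of the genes tested. At an unadjusted p under 0.05 there were 4 subunits of 8, all higher in RKO, against 12.8% of tested genes in either direction and 5.90% in that direction. Both RKO arrays lay above both WT arrays for 4 of these 8 subunits, and for 17.2% of all tested genes. Both lay below both WT arrays for 0 of the 8, and for 24.6% of tested genes. The difference was above 0 for 7 of the 8 and for 43.2% of tested genes. The median difference of the 8 was 0.18, beside -0.01 over all tested genes. The subunits thus ran from -0.07 for Chrnb2 to 0.36 for Chrnb3. These are whole-tissue samples, in which a change in the number of cells of a type and a change in RNA per cell cannot be told apart.

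**Figure D1:**
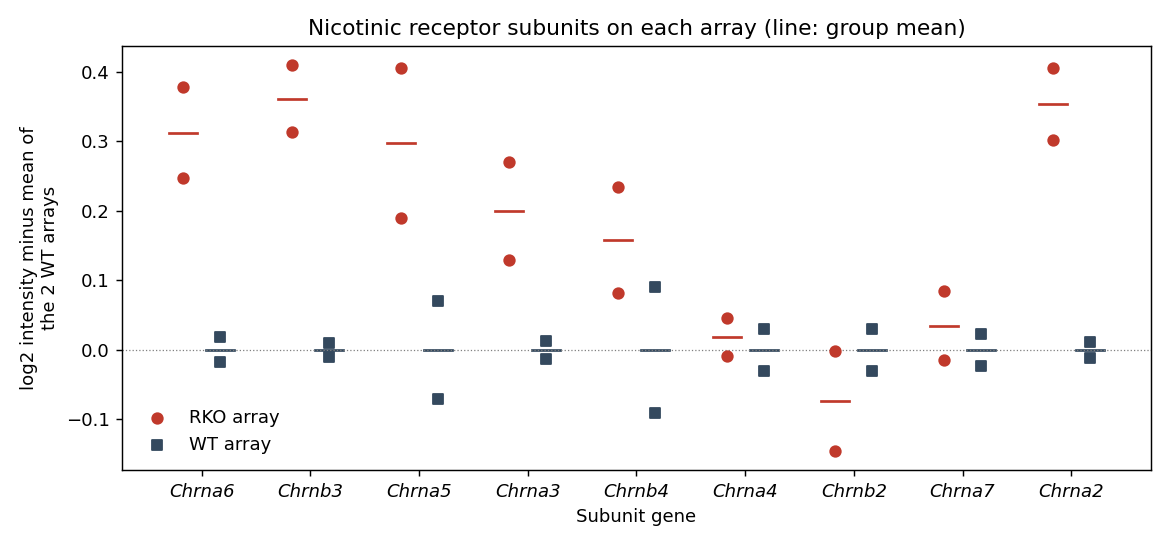
Log2 intensity of each subunit gene on each array minus the mean of the 2 WT arrays of that gene. Circles are RKO arrays, squares are WT arrays and short lines are group means. For Chrna6, Chrnb3, Chrna5, Chrna3 and Chrna2 both circles lie above both squares, and for the other 4 genes the groups overlap.

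Chrnb3 encodes an accessory subunit that does not bind acetylcholine by itself and joins receptors that contain Chrna6. It had intensities of 581 and 621 in RKO, against 471 and 465 in WT. Both RKO values lay above both WT values, and the WT pair was the tighter one. The rise was 1.28-fold (95% interval 1.17 to 1.40), a log2 difference of 0.36 (SE 0.0585, adjusted p = 0.0100), and Chrnb3 was number 106 of 13587 by p. Chrna6, the α subunit that marks catecholamine neurons in rodents, had intensities of 915 and 1001 in RKO and of 761 and 780.3 in WT. Here too the groups did not overlap, with RKO replicate 2 the higher of its pair. It rose 1.24-fold (95% interval 1.13 to 1.36, log2 difference 0.31, SE 0.0618, adjusted p = 0.0311). Both calls rested on few arrays. The call of Chrnb3 was lost without RKO replicate 2 (adjusted p = 0.0920), and that of Chrna6 without WT replicate 1 (0.101), RKO replicate 1 (0.0632) or RKO replicate 2 (0.157). With no filter on dim probe sets neither passed (adjusted p = 0.149 for Chrnb3 and 0.245 for Chrna6). The lowest difference over the 12 alternatives was 0.31 for Chrnb3 and 0.25 for Chrna6, both without RKO replicate 2. The filters, the intensity trend, the mean of probe sets and the replicate block cannot change these differences and bear only on the calls.

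The remaining subunits above the filter did not pass in the fit as designed. Chrna5 encodes another accessory subunit, which in dopamine neurons joins receptors of Chrna4 and Chrnb2. Its intensities were 203 and 235 in RKO and 187 and 169 in WT, without overlap, and its log2 difference was 0.30 (SE 0.0778, adjusted p = 0.103). Chrna5 was dim, and the spread between its arrays was wide in both groups. It passed with median centring (adjusted p = 0.00473 in limma) and with an intensity trend in eBayes (0.0494). Without WT replicate 1 its log2 difference was 0.37. Median centring also raised the share of tested genes with RKO replicate 2 above RKO replicate 1 from 68.1% to 77.4%. Chrna3, the α subunit of the ganglionic receptor, had intensities of 402 and 443 in RKO and of 364 and 371 in WT. The groups did not overlap, with a log2 difference of 0.20 (SE 0.0627, adjusted p = 0.183). Its partner Chrnb4 had intensities of 286 and 258 in RKO and of 228 and 259 in WT. One RKO array lay below the higher WT array, and the log2 difference was 0.16 (SE 0.0748, adjusted p = 0.415).

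Chrna4, which with Chrnb2 makes the most widespread high-affinity receptor of the brain, had intensities of 3188 and 3314 in RKO and of 3142 and 3278 in WT. The groups overlapped almost wholly, at a log2 difference of 0.02 with a 95% interval of -0.11 to 0.15 (adjusted p = 0.946). Chrnb2, a β subunit found with Chrna4 and Chrna6 in receptors of dopamine neurons, was at 1480.5 and 1636 in RKO and at 1603 and 1672 in WT. It was the 1 subunit with a difference below 0, at -0.07 with a 95% interval of -0.21 to 0.07 (adjusted p = 0.734). Chrna7, a subunit with high calcium permeability, was at 586 and 628 in RKO and at 601 and 583 in WT, with a log2 difference of 0.04 and a 95% interval of -0.10 to 0.17 (adjusted p = 0.887). Each of these intervals includes 0 and has its upper bound at or below 0.17, less than the smallest difference called in any tested gene (0.26).

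**Figure D2:**
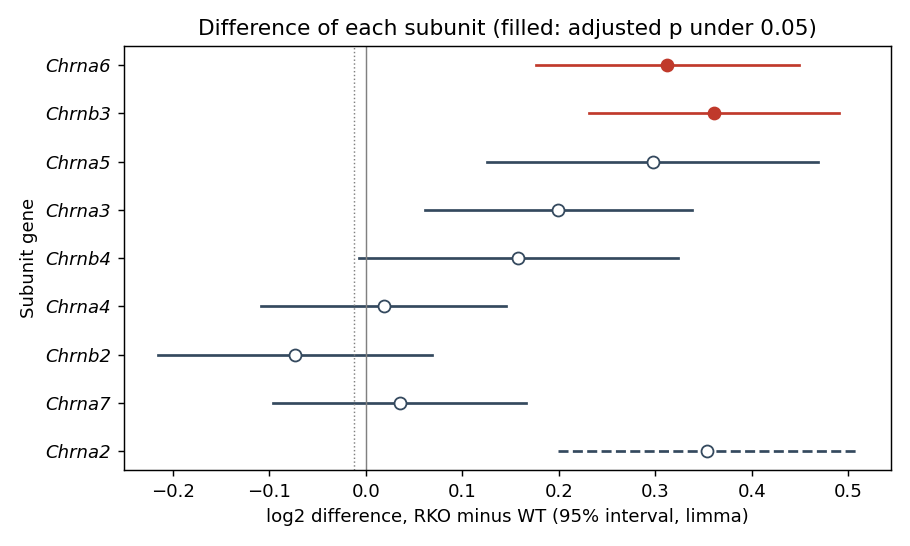
Log2 difference, RKO minus WT, of each subunit gene with its 95% interval from limma. Filled points (Chrna6 at 0.31 and Chrnb3 at 0.36) have an adjusted p under 0.05, the broken line of Chrna2 comes from the fit without a filter, and the dotted vertical line is the median of all tested genes at -0.01.

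Chrna2, the α subunit abundant in the interpeduncular nucleus of rodents, was at 109.8 and 118 in RKO and at 88.3 and 89.8 in WT, all below the filter. The groups did not overlap. In the fit without a filter its log2 difference was 0.35 (SE 0.0644), with an unadjusted p of 0.00111 in limma and an adjusted p of 0.156. Without a filter 9.81% of genes had an unadjusted p under 0.05, 0.155% were called and 21.3% had both RKO arrays above both WT arrays. The last share was 17.2% over genes above the filter, so it was larger among genes below the filter, where Chrna2 lies. The mean of Chrna2 stood at percentile 26.3 of the probe sets.

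Among the 9 subunits RKO replicate 2 gave a higher value than RKO replicate 1 for 8, all but Chrnb4. The same order held for 68.1% of all tested genes, so the subunits shared it with most genes on these arrays. The widest gap between the 2 RKO arrays was 0.22 on the log2 scale and that between the 2 WT arrays 0.18. The first was for Chrna5 and the second for Chrnb4, whose means stood at percentiles 44.8 and 52.2 of the probe sets.

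The RKO minus WT differences were also taken as ratios within each array. Relative to Chrna4 on the same array, Chrna6 was higher in RKO by 0.29 and Chrnb3 by 0.34 on the log2 scale. Relative to Chrnb2 the same subunits were higher by 0.39 and 0.43. The ratios did not overlap between the groups in any of these 4 cases, which were chosen after the differences of the single genes had been seen and are given as a description. An exact two-sided permutation test of 2 arrays against 2 gave p = 0.333 for each, the smallest p it allows, and cannot reach 0.05. Relative to the mean of Th, Ddc, Slc6a3 and Slc18a2, the log2 difference was -0.14 for Chrna6 and -0.09 for Chrnb3, again without overlap and with an exact permutation p = 0.333. These values depended on Th: relative to Ddc, Slc6a3 and Slc18a2 alone, an alternative added after seeing the data, they were -0.052 for Chrna6 (exact permutation p = 0.333) and -0.0036 for Chrnb3, whose groups then overlapped (exact permutation p = 1).

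Those genes differed as follows. Th, the rate-limiting enzyme of dopamine synthesis, stood at 3620.0 and 3664 in RKO and at 2168 and 2248 in WT (log2 difference 0.72). Slc18a2, which loads dopamine into vesicles, rose by 0.42, Slc10a4, a vesicular membrane protein, by 0.35, the decarboxylase Ddc by 0.34, the dopamine transporter Slc6a3 by 0.33 and the autoreceptor Drd2 by 0.29. The difference of Chrnb3 (0.36) lay between those of Slc18a2 and Slc10a4, and that of Chrna6 (0.31) between those of Slc6a3 and Drd2. Of 18 tested dopamine neuron genes 6 rose, 0 fell and 12 did not pass, with a median of 0.20. Beside this, 0.640% of all tested genes were called higher and 0.964% lower, with a median of -0.01. The count of 6 became 1 with no filter, 2 without RKO replicate 1, 1 without RKO replicate 2 and 10 with an intensity trend in eBayes. Not all genes of these cells lay above 0: Aldh1a1, an aldehyde dehydrogenase of ventral dopamine neurons, was at -0.10 and Calb1, a calcium buffer, at -0.17, neither of them called. The summed intensity of 8 dopamine neuron markers was 17935 and 18508 in RKO, against 14573 and 14989 in WT. How far the number of dopamine neurons in the samples took part in the subunit differences was not tested.

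Markers of other tissue also moved with the groups. For scale, limma called 0.640% of all tested genes higher and 0.964% lower, and 12.8% had an unadjusted p under 0.05. Both RKO arrays lay above both WT arrays for 17.2% of tested genes and for 21.3% of genes without a filter. Of 11 tested leptomeningeal markers 8 fell (sums of 13 genes 4672 and 4705 in RKO, 6121 and 6226 in WT). Another 2 of the 11 had both RKO arrays above both WT arrays and were not called. Both lateral hypothalamic peptides, Pmch and Hcrt, fell (sums 607 and 530.3 in RKO, 998 and 1030 in WT). Of 6 tested thalamic markers Prkcd and Rora fell (sums of 7 genes 9981 and 10366 in RKO, 11925 and 12124 in WT). Medial habenula, where Chrna3 and Chrnb4 are abundant, gave 5 tested markers, of which Tac2 fell and 4 did not pass. Below the filter, Pou4f1 (125 and 131 in RKO, 106 and 112 in WT) and Gpr151 (140.4 and 118 in RKO, 101 and 112 in WT) had both RKO arrays above both WT arrays, with unadjusted p of 0.00926 and 0.0251 in the limma fit without a filter and adjusted p of 0.334 and 0.440. Of the 7 markers 5 had a difference above 0, and their sums overlapped, with 2566 and 2590 in RKO and 2517 and 2598 in WT. Of 7 tested GABA neuron markers Gata3 rose and 6 did not pass, with sums of 8470.2 and 8601 in RKO and 7853 and 8001 in WT. In limma 3 of the 7 were under 0.05 before adjustment, and the median was 0.15. All 7 had both RKO arrays above both WT arrays, as did 17.2% of tested genes. Called higher were 3 of them with median centring, with an intensity trend and with a replicate block, and 0 with no filter. Of 7 astrocyte markers 2 fell and 5 did not pass, among them Gja1 at 0.22 (adjusted p = 0.0848), which was called higher with the 60th percentile filter and with an intensity trend. Of 5 oligodendrocyte markers 1 fell, and limma called 0 of 5 microglial markers, with 0 under 0.05 before adjustment. For neurons of cholinergic motor nuclei limma called 0 of 3 tested markers, with 2 under 0.05 before adjustment. These 2 went opposite ways, Slc18a3 at 0.14 and Isl1 at -0.26. With median centring 1 marker was called lower. The serotonin neuron markers Tph2 and Slc6a4, below the filter, had both RKO arrays above both WT arrays. Tph2 was at 133 and 126 in RKO and at 83.5 and 96.1 in WT, a log2 difference of 0.53. That of Slc6a4 was 0.11. In the limma fit without a filter their unadjusted p was 0.000446 and 0.127, and their adjusted p 0.105 and 0.623. The part of these tissues in the subunit differences was not tested.

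**Figure D3:**
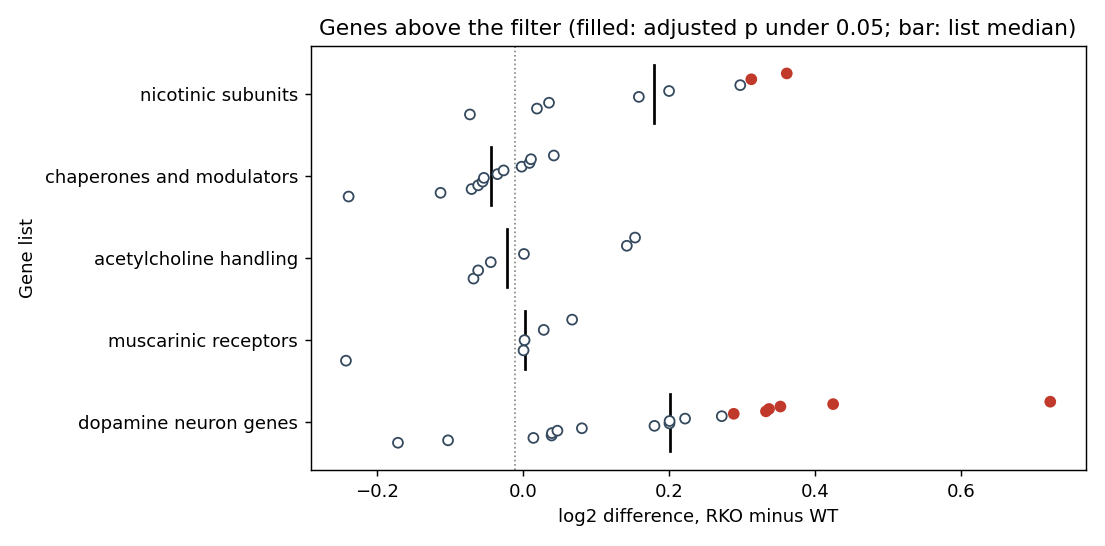
Log2 difference, RKO minus WT, of every gene above the filter in 5 lists, 1 point per gene. Filled points have an adjusted p under 0.05, black bars are list medians and the dotted line is the median of all tested genes. Filled points occur among nicotinic subunits (2 of 8) and dopamine neuron genes (6 of 18) and in none of the other 3 lists. Of all tested genes 1.60% were called.

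Among 24 tested genes of 4 further cholinergic lists limma called 0, beside 1.60% of all tested genes, and a count of 0 in so few genes is near that share. At an unadjusted p under 0.05 there were 4 of the 24, beside 12.8%. Of the 7 muscle-type and sensory nicotinic subunits (Chrna1, Chrna9, Chrna10, Chrnb1, Chrnd, Chrne and Chrng) 6 lay below the filter, and Chrng, the γ subunit of fetal muscle, was at 0.13 (adjusted p = 0.412). Of 12 tested chaperones and modulators of nicotinic receptors 0 passed, 1 had an unadjusted p under 0.05, and the median was -0.04. The chaperones Ric3 and Tmem35a, which help nicotinic subunits assemble, were at -0.07 and -0.04 with overlapping groups. Lynx1, a GPI-anchored protein that dampens the receptors, was at -0.06 (adjusted p = 0.753), with both RKO arrays below both WT arrays. Lypd6, a related protein of the Ly6 family, had intensities of 1027 and 1074 in RKO and of 1265 and 1216 in WT (log2 difference -0.24, adjusted p = 0.0752). It was called lower with median centring, with an intensity trend in eBayes and with the 60th percentile filter.

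Of 6 tested genes for handling acetylcholine 0 passed, 2 had an unadjusted p under 0.05, and the median was -0.02. The esterase Ache was at 1943 and 1979 in RKO and at 2028 and 2018 in WT (-0.04). The vesicular acetylcholine transporter Slc18a3 was at 199.99 and 199 in RKO and at 177 and 184 in WT (0.14, adjusted p = 0.312), close to the filter, and Colq, which anchors the esterase, was at 0.15. Chat, the enzyme that makes acetylcholine, and Slc5a7, which takes up choline, lay below the filter. Of 5 muscarinic receptors, the G protein-coupled receptors for the same transmitter, 0 passed, 1 had an unadjusted p under 0.05, and the median was 0.0016. Chrm3 was at 776 and 799 in RKO and at 899 and 965 in WT (-0.24, adjusted p = 0.0808), and like Lypd6 it was called lower under 3 of the alternatives. Chrm5, the muscarinic receptor of dopamine neurons, was at 0.0016, Chrm2 at 0.00019, Chrm1 at 0.07 and Chrm4 at 0.03.

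The subunit genes lie in 2 clusters and 4 single places. In the RefSeq gene table of GRCm38.p6, Chrnb3 and Chrna6 are next to each other on chromosome 8, and Chrna5, Chrna3 and Chrnb4 follow each other on chromosome 9. Chrna4 is on chromosome 2, Chrnb2 on 3, Chrna7 on 7 and Chrna2 on 14. The 2 subunits that rose are thus the pair on chromosome 8, and the 3 on chromosome 9 lay at 0.16 to 0.30. The genes Chrna5 and Chrna3 overlap in that table, and whether their probe sets read the shared stretch is unknown here. Up to 3 genes on either side of each subunit gave 36 neighbours, of which 20 were on the array and 15 above the filter. Of those 15, 0 passed in limma, and their median was -0.02 with a range of -0.28 (Ptk2b, adjusted p = 0.0758) to 0.14. Beside the chromosome 9 cluster Psma4 was at -0.02, Hykk at -0.07, Ube2q2 at -0.03 and Fbxo22 at -0.08. Below the filter, AY074887 next to Psma4 was at 0.30, with 79.2 and 83.9 in RKO and 66.2 and 65.9 in WT (unadjusted p = 0.00205 and adjusted p = 0.205 in the limma fit without a filter). No neighbour of the chromosome 8 pair lay above the filter. Tex24 was at 0.18 and Poteg at 0.02, both with overlapping groups. Gm1698 was at 0.14 with both RKO arrays above both WT arrays, as were 21.3% of genes without a filter.

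**Figure D4:**
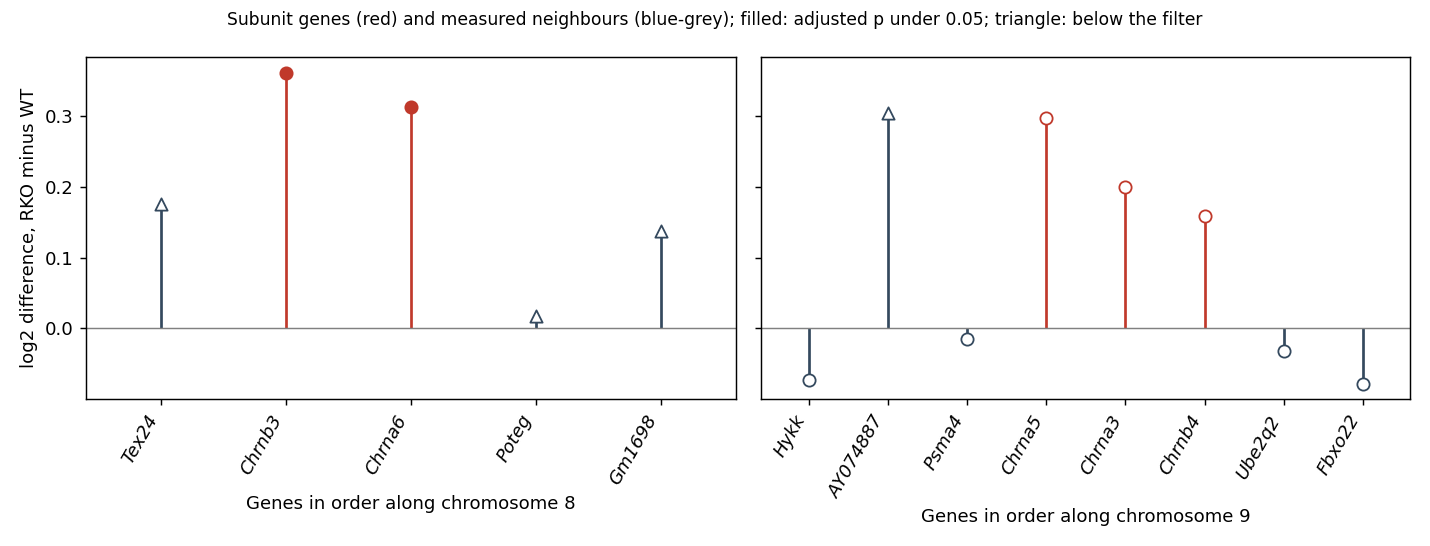
Log2 difference, RKO minus WT, of subunit genes and their measured neighbours in the order of the genes along chromosomes 8 and 9. Filled points have an adjusted p under 0.05, open circles do not, and triangles are genes below the filter, which were not tested. The 5 subunits lie at 0.16 to 0.36 and the tested neighbours, all on chromosome 9, at -0.08 to -0.02. The neighbours below the filter lie above 0, from 0.02 (Poteg) to 0.30 (AY074887).

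RefSeq start regions of GRCm38.p6 (250 bases before and 50 after a start) were matched for 6 subunits, with 7 windows since Chrna5 had 2. Matched were Chrna3, Chrna4, Chrna5, Chrna7, Chrnb2 and Chrnb4. No window was available for Chrna2, Chrna6 or Chrnb3, so the called pair, Chrna6 and Chrnb3, was not searched. Searched on both strands were AGGTCA, the half-site that REV-ERBα and ROR receptors share with other nuclear receptors, ANTAGGTCA, a ROR element that contains it, AAAGGTCA, the NBRE of NR4A receptors, which also contains it, TAATCC of PITX factors and CACGTG, an E-box bound by CLOCK and BMAL1. The 3 windows with a match are shown, as the 250 bases before the start with the matches in capitals. They lie at chr3:89764633-89764882 (minus strand) for Chrnb2, chr9:54981238-54981487 (plus strand) for the second start of Chrna5 and chr7:63212527-63212776 (minus strand) for Chrna7.
Chrnb2: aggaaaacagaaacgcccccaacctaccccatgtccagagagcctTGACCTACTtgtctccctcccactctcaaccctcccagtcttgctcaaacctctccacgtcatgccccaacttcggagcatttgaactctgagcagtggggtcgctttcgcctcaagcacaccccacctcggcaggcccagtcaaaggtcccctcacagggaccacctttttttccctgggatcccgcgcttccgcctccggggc
Chrna5: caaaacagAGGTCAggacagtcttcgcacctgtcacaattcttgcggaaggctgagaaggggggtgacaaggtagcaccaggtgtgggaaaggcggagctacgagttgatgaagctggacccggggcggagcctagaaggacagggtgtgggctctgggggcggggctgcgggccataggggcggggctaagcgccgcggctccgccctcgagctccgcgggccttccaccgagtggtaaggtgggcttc
Chrna7: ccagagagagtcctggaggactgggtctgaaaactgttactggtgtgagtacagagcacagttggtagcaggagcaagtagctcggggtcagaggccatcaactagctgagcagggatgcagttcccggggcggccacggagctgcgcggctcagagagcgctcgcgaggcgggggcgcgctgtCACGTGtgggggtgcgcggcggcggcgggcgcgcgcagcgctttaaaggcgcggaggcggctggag
In Chrnb2 the capitals mark a ROR element on the opposite strand, at position -205 from the start, which contains the half-site matched there. Such an element was present in 0.661% of all 32851 windows. In Chrna5 they mark a half-site at position -242, present in 16.3% of all windows, and in Chrna7 an E-box at position -66, present in 7.15%. An NBRE (1.51% of all windows) and the PITX letters (7.06%) were in none of the 7. A match describes letters only, and Chrnb2, Chrna5 and Chrna7 were not called in the fit as designed.

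Genes most like the called pair over the 4 arrays were sought by Euclidean distance between log2 values centred on each gene's mean. Nearest to Chrna6 were Rdh5, a retinol dehydrogenase (0.0220), Cry1, a clock repressor (0.0222), and Npy1r, a neuropeptide Y receptor (0.0307). Nearest to Chrnb3 were Pdzd2 (0.0312), the acid-sensing channel gene Asic4 (0.0401) and again Cry1 (0.0553). Chrna6 and Chrnb3 were at a distance of 0.0666, which made Chrnb3 number 11 for Chrna6 and Chrna6 number 13 for Chrnb3. Within 0.1 there were 47 genes for Chrna6 and 40 for Chrnb3. All these values share the same 4 arrays in 2 groups, and genes with a like difference between the groups lie close by this measure.

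**Figure D5:**
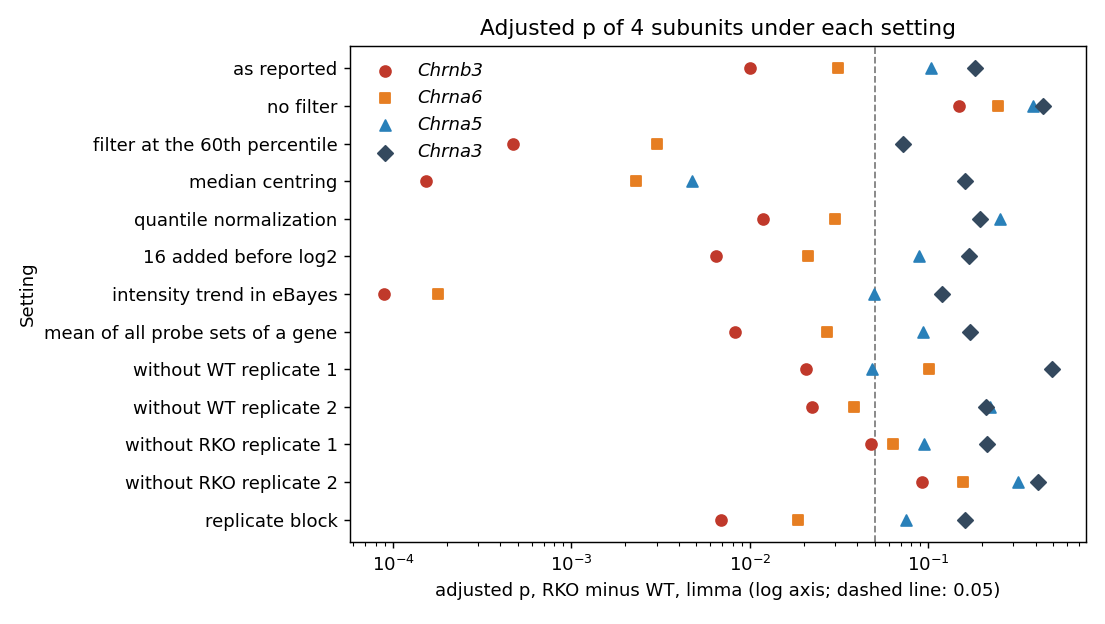
Adjusted p from limma of 4 subunits under each setting, on a log axis, with 0.05 as a broken line. Chrnb3 lies left of the line under all settings but no filter and without RKO replicate 2, Chrna6 crosses it under no filter and without 3 of the 4 arrays, and Chrna3 lies right of it throughout.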

How the data were processed

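Biotinylated cRNA from 1 µg of total RNA was hybridised to an Affymetrix mouse gene array, per the labels' protocols. The authors deposited normalized intensity values that are linear, 1 for each probe set of an array. The submitters' processing notes list GCOS and RMA, with no settings. The deposited values were transformed to log2 here, without a pseudocount. Gene symbols came from the platform annotation, in which 21789 probe sets had 1 symbol, 1621 had several and 12146 were unnamed here; only the first kind was used, with the probe set of highest mean per gene. The RKO minus WT contrast was fitted in limma 3.58.1 (lmFit, eBayes; R 4.3.3) over the 13587 genes above the 40th percentile, without covariates, with 2 residual and 8.73 prior degrees of freedom. The method was tested on simulated data. Precision is limited by having 4 arrays.

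All 9 subunits are named, with genes of the accompanying lists that passed and the first of each list. Calb1, Colq, Lypd6, Chrm5, Ptk2b, Gja1, Pou4f1, Gpr151, Isl1 and the named neighbours lie outside that rule or were chosen after their values were seen. Members and lists were chosen with earlier results of these data known. Alternatives were no filter, the 60th percentile filter, median centring, quantile normalization, 16 added to each intensity, an intensity trend, the mean of a gene's probe sets, each array left out and a replicate block. At most 5 values were identical between any pair of arrays. Protein sequences were not used here.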

Additional observations from a re-analysis of the deposited data

How the results depend on the processing

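The subunits called lower stayed at 0 in limma under all 12 alternatives (4 subunits at an unadjusted p under 0.05 in the reported fit, all higher). Of subunits called higher there were 2 as reported, 0 with no filter and 0 to 2 when 1 array was left out. With no filter the log2 differences of Chrna6 (0.31) and Chrnb3 (0.36) lost their calls. Leaving out 1 array gave differences of 0.25 to 0.38 for Chrna6, 0.31 to 0.41 for Chrnb3 and 0.19 to 0.40 for Chrna5. Among fits of all 4 arrays Chrna5 gained a call with median centring (0.29, adjusted p = 0.00473 in limma). It also gained one there with an intensity trend (0.30, adjusted p = 0.0494 in limma). In the median-centred fit Chrna5 had a smaller unadjusted p (7.94e-05 in limma) than Lypd6 (0.000701). In the reported fit the order was the reverse (0.00297 and 0.00168), with the larger SE for Chrna5 (0.0778 and 0.0576). The SE of Chrna5 in the median-centred fit is not given here, and the reason for the changed order was not tested. The 60th percentile filter left out Chrna5 and Chrnb4. Nr1d1 passed under all 12 alternatives. All genes called higher and lower were 87 and 131 as reported, 8 and 23 with no filter, 191 and 264 with median centring and 190 and 309 with an intensity trend, and ran from 32 to 142 and from 41 to 151 when 1 array was left out. Of dopamine neuron genes 6 were called higher as reported, 1 with no filter, 10 (and 1 lower) with an intensity trend and 1 to 4 when 1 array was left out. Under the 60th percentile filter, median centring and the intensity trend, 1 chaperone or modulator (Lypd6) and 1 muscarinic receptor (Chrm3) were called lower. Deviations of same-numbered arrays from their group means correlated at r = -0.11 over tested genes, and the labels give no shared litter, batch or day, so the samples share only a number. The fit with a replicate block called the same number of subunits, 2 higher, and 105 genes higher and 154 lower. Ratios within an array cannot move with the filters, median centring, the trend or the mean of probe sets, and they have no replicate block value. Leaving Th out of the dopamine gene mean, chosen after seeing the data, moved the ratio of Chrna6 to -0.052 and that of Chrnb3 to -0.0036. With 1 array left out, the lone array of its group is assumed to vary like the other group. The cause of the changed calls was not tested. Probe sets near or below the filter, Chrna2 and Chrna5 among them, limit what the arrays show.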
